A study of Saccharomyces cerevisiae with 14 samples.

Results

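Here 12 of the 14 libraries of the series were compared as pairs of strains: the 6 libraries of MSB3Δ and NIT3Δ against the 6 libraries of HSP26Δ and TYS1 DAmP, over the 5727 of 5886 genes whose mean over the 14 libraries was at least 1 FPKM (fragment counts scaled to transcript length and to library size). All strains were haploid MATa cells of BY4741 (his3Δ1 leu2Δ0 met15Δ0 ura3Δ0), a laboratory strain of S288C descent, and RNA was taken in log phase from YPD medium with 2% glucose. MSB3, NIT3 and HSP26 were each deleted with a KanR cassette, while TYS1 DAmP carries this cassette directly behind the reading frame, which lowers the transcript of an essential gene. Each mutant had 3 libraries and WT had 2, although the series text describes 3 replicates per group, and no label says whether the replicates were separate clones or cultures. MSB3 encodes a GTPase-activating protein of Rab GTPases in polarized secretion, NIT3 a protein of the nitrilase family, HSP26 a small heat shock protein that binds unfolded proteins, and TYS1 the tyrosyl-tRNA synthetase. The study concerned genes that act on replicative lifespan, and the comparison asks which transcripts set one pair of mutants apart from the other.

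The pairs were chosen by measured values, since the strains put together were those whose log2 changes against WT correlated most. Over 5727 genes Pearson's r was 0.83 between MSB3Δ and NIT3Δ and 0.70 between HSP26Δ and TYS1 DAmP, against 0.46 to 0.56 for the other 4 combinations. All of these changes share the same 2 WT libraries. Without MSB3Δ replicate 1 and NIT3Δ replicate 2 the r of MSB3Δ and NIT3Δ was 0.62, and that of MSB3Δ and TYS1 DAmP was 0.63. NIT3Δ was still closest to MSB3Δ, with 0.57 to TYS1 DAmP and 0.54 to HSP26Δ. HSP26Δ and TYS1 DAmP stayed at 0.70. Only the rank of NIT3Δ as the closest partner of MSB3Δ, and the wide margin, thus rested on these 2 libraries. Because every gene took part in the choice of the pairs, the differences between them are given as a description, with no test. At the edge of the filter YBL111C, with a mean of 1.02 FPKM, was kept and YAL065C, with 0.99 FPKM, was not.

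The targeted genes were as labelled. MSB3 was at 0.02, 0 and 0 FPKM in MSB3Δ and at 20.03 to 33.9 FPKM in the 9 other mutant libraries. NIT3 was at 0.05, 0.28 and 0 FPKM in NIT3Δ and at 214 to 315 FPKM in the other mutants. HSP26 was at 0.15, 0.08 and 0.08 FPKM in HSP26Δ and at 98.4 to 3627 FPKM in the other mutants. TYS1 was at 66.2, 71.4 and 82.5 FPKM in TYS1 DAmP and at 413 to 561 FPKM in the other mutants, so its transcript was reduced but present. Over all libraries the a-specific genes STE2, AGA2, STE6, ASG7 and BAR1 were at 90.5 to 668, 40.8 to 1116, 11.8 to 94.5, 6.37 to 61.4 and 3.61 to 176 FPKM. The α-specific genes MF(ALPHA)1, MF(ALPHA)2, STE3 and SAG1 were at 0 to 2.13, 4.97 to 10.7, 4.99 to 19.5 and 10.4 to 27.0 FPKM, so SAG1 and STE3 exceeded BAR1 in some libraries, and HMLALPHA1 was at most 0.21 FPKM. MET17, the gene missing in met15Δ0, was at most 0.03 FPKM, while HIS3, of which his3Δ1 removes only a part, was at 122 to 231 FPKM.

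Before the pairs were compared, the libraries were set beside each other. The distance between 2 libraries was taken as the root mean square difference of log2(FPKM + 1) over genes. NIT3Δ replicate 2 was the farthest, with a median distance of 1.02 to the other 11 mutant libraries, and MSB3Δ replicate 1 and TYS1 DAmP replicate 1 followed with 0.66 and 0.67. The other 9 lay between 0.37 and 0.49. The nearest mutant library belonged to the same strain for 5 of the 12 libraries, to the partner strain for 4 and to the opposite pair for 3. Of the total sum of squares over genes, 19.9% lay between the pairs, 12.7% between the strains of a pair and 67.4% between replicates of a strain. Without MSB3Δ replicate 1 and NIT3Δ replicate 2 these shares were 16.0%, 20.8% and 63.2%. Ribosomal protein genes took 30.1% of all FPKM in MSB3Δ replicate 1 and 18.0% in NIT3Δ replicate 2, against 38.6% to 46.0% in the other 10 mutant libraries. Relative depth, estimated from the steps between the low values of 37 short genes, ranged from 0.89 to 1.08 of the mean.

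**Figure D1:**
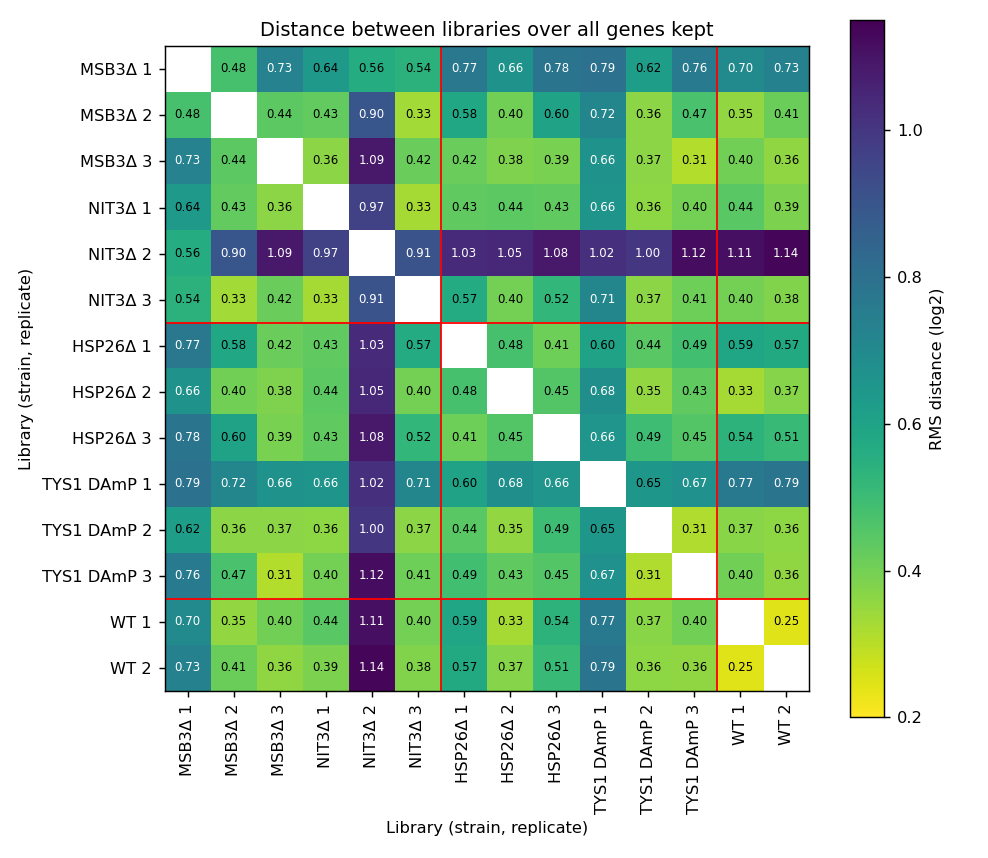
Root mean square distance in log2(FPKM + 1) between each 2 of the 14 libraries over 5727 genes, with red lines between the MSB3Δ/NIT3Δ pair, the HSP26Δ/TYS1 DAmP pair and WT. The row of NIT3Δ replicate 2 is the darkest, and blocks within a pair are not set apart from blocks between pairs: the median distance was 0.54 within MSB3Δ/NIT3Δ, 0.48 within HSP26Δ/TYS1 DAmP and 0.57 between them.

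The difference between the pairs was the mean of MSB3Δ and NIT3Δ minus the mean of HSP26Δ and TYS1 DAmP on log2(FPKM + 1), a scale that understates the change of low genes. Its median over all genes was 0.14, with 72.2% of the genes above 0, and 0.01 with 53.4% above 0 without MSB3Δ replicate 1 and NIT3Δ replicate 2, and after median-ratio scaling of the libraries it was −0.01, a shift against which each difference has to be read. A gene was counted as separated when the pairs differed by a fold above 1.5 or below 0.7 and all 6 libraries of one pair lay above all 6 of the other. This held for 6 genes that were higher in MSB3Δ/NIT3Δ (0.105% of the genes) and for 6 that were lower (0.105%). Past the fold alone were 343 higher (5.99%) and 160 lower genes (2.79%), and without the 2 libraries 67 (1.17%) and 149 (2.6%). Median-ratio scaling gave 4 higher and 21 lower separated genes, with 10 of the 12 among them. Without the 2 libraries, which also leaves fewer values that have to lie apart, 4 higher (0.0698%) and 20 lower genes (0.349%) were separated, 3 and 5 of them among the 12. No p-value was attached to a gene, since the contrast had chosen the pairs. A limma fit of this contrast gave an adjusted p under 0.05 for 7 genes (0.122%), the 4 targeted genes and ERG25, ERG3 and ATF2, none of which was free of overlap, and nothing is read from that count.

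The higher genes in MSB3Δ/NIT3Δ were YOR186W, YFR006W, MIX17, DUG1, SVS1 and TUF1, and the lower ones named here SNZ1, TPO2, YER160C, YBR238C and NHP6B. Vitamin B6 in its phosphate form is a cofactor of many enzymes of amino acid metabolism, and in yeast SNZ1 and SNO1 encode the synthase and glutaminase subunits that make it, mostly when growth slows. Polyamines are small cations made from ornithine that bind nucleic acids, and yeast exports them through transporters of the plasma membrane. RNA came from whole cultures, so a larger share of cells with a transcript and more of it per cell cannot be told apart.

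**Figure D2:**
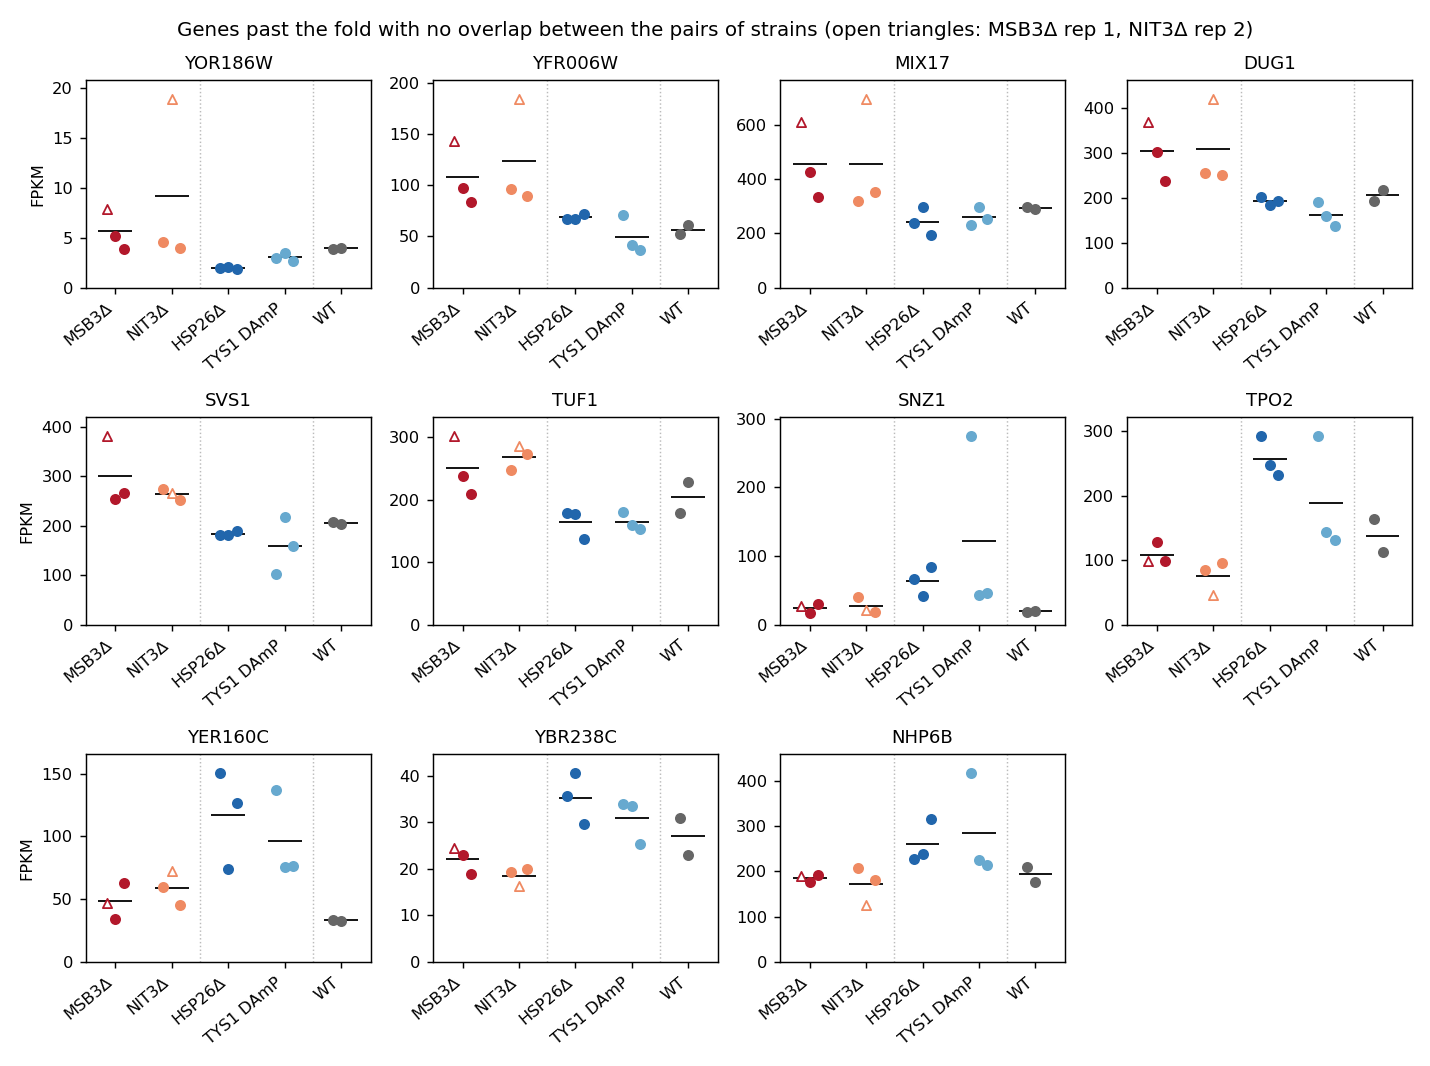
FPKM on linear axes for 11 of the 12 separated genes in each of the 14 libraries, grouped by strain, with bars at the strain means and open triangles for MSB3Δ replicate 1 and NIT3Δ replicate 2. All 6 libraries of the first pair lie on one side of all 6 of the second in each panel. WT took no part in this criterion or the fold, but entered the filter on the mean and the choice of the pairs.

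SNZ1 (YMR096W, chromosome XIII, 458408 to 459301) differed most among the separated genes. It was at 26.9, 17.4 and 30.2 FPKM for MSB3Δ, 40.1, 21.2 and 19.0 for NIT3Δ, 66.8, 41.7 and 84.8 for HSP26Δ, 275, 43.7 and 46.8 for TYS1 DAmP and 19.3 and 20.8 in WT. The gap between the highest library of the lower pair and the lowest of the upper pair was narrow, and TYS1 DAmP replicate 1 alone was far above the rest. The log2 difference was −1.49 ± 0.41 (SE of the limma fit), and −1.04 without MSB3Δ replicate 1, NIT3Δ replicate 2 and TYS1 DAmP replicate 1. Its divergent neighbour SNO1 was at 12 to 20.7 FPKM in MSB3Δ/NIT3Δ and 20.5 to 74.9 FPKM in HSP26Δ/TYS1 DAmP, with a log2 difference of −0.83 ± 0.27, and missed separation by 1 library of NIT3Δ. Both start codons lie 448 bases apart. The paralogs SNZ2 and SNZ3, whose coding sequences are 99.3% identical so that their reads cannot be told apart well, went the opposite way at 1.06 and 1.12, with overlap between the pairs. SNZ1 and SNZ2 share 71.8% of aligned coding bases. In a list of vitamin B6 and thiamine genes, written after values were seen, 17 of 22 differed by more than 0, against 72.2% of all genes. Past the fold and higher were 6, against 5.99% of all genes. Past it and lower were 2, SNZ1 and SNO1, against 2.79%. Since the list was written with values known, these counts are no support for it. The list's median was 0.32, and 0.03 without the 2 libraries.

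The polyamine exporter gene TPO2 followed. TPO2 (YGR138C, chromosome VII) was at 98.8, 128 and 98.8 FPKM for MSB3Δ, 84.3, 45.7 and 95.0 for NIT3Δ, 292, 248 and 232 for HSP26Δ and 293, 144 and 131 for TYS1 DAmP, with WT at 163 and 112. Replicates 2 and 3 of TYS1 DAmP were only just above the highest MSB3Δ library, and the log2 difference was −1.27 ± 0.23. Transporters of this kind are similar in sequence, so reads may have been assigned to another copy. SPE3, the spermidine synthase, had no overlap either but stayed under the fold, at 441 to 593 FPKM against 620.2 to 744 FPKM (−0.28 ± 0.12). Of 18 genes of polyamine synthesis and transport, a list written after these values were seen, 8 differed by more than 0, against 72.2% of all genes. None was separated and higher, but only 0.105% of all genes were, so nothing is read from this. With overlap, TPO1 differed by −0.72 and the carnitine and polyamine permease gene AGP2 by 0.62, and the list's median was −0.07, against 0.14 over all genes.

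The windows from 250 bases before to 50 after the start codon are shown for SNZ1 and TPO2 because these had the largest differences among the lower genes. They were read from the R64 genome 5′ to 3′ on the coding strand, and capitals mark matches, none overlapping another, to TGACTC, the core site of the amino acid regulator Gcn4, and CCAAT, the core site of the Hap complex. SNZ1 had TGACTC starting 179 bases before its start codon, while TPO2 had neither motif and no AGGGG, the element of Msn2 and Msn4.
SNZ1 (chrXIII:458158-458457, forward strand): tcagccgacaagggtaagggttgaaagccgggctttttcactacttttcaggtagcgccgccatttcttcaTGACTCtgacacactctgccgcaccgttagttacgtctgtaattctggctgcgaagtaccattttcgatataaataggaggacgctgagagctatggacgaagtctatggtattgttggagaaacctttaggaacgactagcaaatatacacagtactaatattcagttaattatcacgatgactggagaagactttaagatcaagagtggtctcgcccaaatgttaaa
TPO2 (chrVII:765557-765856, reverse strand): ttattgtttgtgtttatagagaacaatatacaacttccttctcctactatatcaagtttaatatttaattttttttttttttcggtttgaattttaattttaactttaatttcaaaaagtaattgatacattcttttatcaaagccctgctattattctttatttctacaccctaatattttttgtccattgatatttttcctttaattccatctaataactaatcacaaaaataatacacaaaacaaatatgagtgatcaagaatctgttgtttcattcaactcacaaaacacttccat
On either strand, TGACTC was in 8.02% of the 5711 windows of genes kept, CCAAT in 43.5% and AGGGG in 21.6%. Among the 12 separated genes TGACTC was in 1, CCAAT in 3 of the higher and 1 of the lower, and AGGGG in 1 of each. The median log2 difference between the pairs was 0.08 for the 458 genes with TGACTC and 0.14 for the 5253 without it.

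YER160C, YBR238C and NHP6B were also among the lower genes. YER160C, a Gag-Pol frame of a Ty1 retrotransposon on chromosome V, was at 34.5 to 72.7 FPKM in MSB3Δ/NIT3Δ, 74.3 to 151 in HSP26Δ/TYS1 DAmP and 33.3 and 32.9 in WT (−0.95 ± 0.23). Ty copies are near identical, so this value is uncertain. Over the 69 retrotransposon frames tested the median difference was 0.09, −0.19 without the 2 libraries and −0.06 after median-ratio scaling, and only YER160C was separated. YBR238C, which encodes a mitochondrial membrane protein, was at 16.3 to 24.5 FPKM against 25.3 to 40.6 FPKM (−0.67 ± 0.13), with its paralog RMD9 at 27.8 to 34.0 and 22.8 to 39.6 FPKM. NHP6B, a chromatin protein of the HMG-box family, was at 126 to 207 FPKM against 213 to 418 FPKM (−0.58 ± 0.20). Its paralog NHP6A overlapped between the pairs, at 337 to 504 and 235 to 417 FPKM, and NHP6B shares 157 bases with YBR090C on the same strand. For YBR238C and NHP6B the nearest libraries of the pairs were close to each other, at 24.5 and 25.3 FPKM and at 207 and 213 FPKM. NHP6B was no longer past the fold without the 2 libraries (−0.48).

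Among the higher genes, 2 act on peptides. YFR006W (chromosome VI, 156145 to 157752), annotated by similarity to X-Pro aminopeptidases, was at 143, 97.2 and 83.2 FPKM for MSB3Δ, 96.7, 184 and 89.9 for NIT3Δ, 67.2, 67.2 and 71.9 for HSP26Δ, 70.8, 41.7 and 36.5 for TYS1 DAmP and 52.5 and 60.8 in WT. Its log2 difference was 0.94 ± 0.22, and 0.67 without MSB3Δ replicate 1 and NIT3Δ replicate 2, its highest libraries. DUG1, the Cys-Gly dipeptidase that takes part in glutathione breakdown, was at 370.1, 304 and 238 FPKM for MSB3Δ, 257, 422 and 252 for NIT3Δ, 202, 184 and 193 for HSP26Δ and 192, 159.7 and 138 for TYS1 DAmP, with WT at 194 and 217. The same 2 libraries were highest, and the difference of 0.76 ± 0.17 was 0.56 without them, just under the fold. A list of peptide and glutathione breakdown was also written after values were seen, and NIT3 itself was left out of it. Of its 25 genes tested, 24 differed by more than 0, against 72.2% of all genes, and 4 were past the fold, against 5.99%. These were YFR006W, DUG1, the peptide transporter gene PTR2 (1.19 ± 0.26) and the aminopeptidase gene AAP1 (0.64 ± 0.18), the last pair with overlap. Since the list was written with values known and holds the separated YFR006W and DUG1, these counts are no support for it. The list's median was 0.26, and 0.07 without the 2 libraries, against 0.14 and 0.01 over all genes.

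YFR006W and its divergent neighbour SAD1, a splicing factor gene whose start codon lies 271 bases away, were both free of overlap, SAD1 at 44.0 to 66.1 FPKM against 32.1 to 43.2 FPKM (0.44 ± 0.13). The windows of YFR006W and DUG1 are shown because both hold CCAAT at 2 places, in capitals, which starts 205 bases before the start codon and again at base 13 of the coding sequence in YFR006W, and 232 and 167 bases before the start codon in DUG1.
YFR006W (chrVI:155895-156194, forward strand): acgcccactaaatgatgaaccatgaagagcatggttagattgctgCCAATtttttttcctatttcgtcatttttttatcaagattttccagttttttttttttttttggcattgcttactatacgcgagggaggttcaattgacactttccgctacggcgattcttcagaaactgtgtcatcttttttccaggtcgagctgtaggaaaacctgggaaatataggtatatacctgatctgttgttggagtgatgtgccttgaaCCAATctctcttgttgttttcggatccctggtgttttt
DUG1 (chrVI:241388-241687, reverse strand): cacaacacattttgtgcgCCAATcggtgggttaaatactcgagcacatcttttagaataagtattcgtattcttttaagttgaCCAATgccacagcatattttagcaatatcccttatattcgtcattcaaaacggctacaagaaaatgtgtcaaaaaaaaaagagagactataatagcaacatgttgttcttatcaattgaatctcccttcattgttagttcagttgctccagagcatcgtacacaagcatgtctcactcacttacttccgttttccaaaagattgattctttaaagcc
YOR186W and TUF1 were neighbours too, on the forward strand of chromosome XV with 484 bases between their frames. YOR186W, a frame of unknown function, was at 7.88, 5.2 and 3.92 FPKM for MSB3Δ, 4.6, 18.9 and 3.93 for NIT3Δ, 1.98, 2.07 and 1.92 for HSP26Δ and 3.02, 3.5 and 2.71 for TYS1 DAmP, with WT at 3.89 and 4.02. Its difference of 1.06 ± 0.32 rested in part on NIT3Δ replicate 2 and was 0.63 without the 2 libraries. At these levels few reads lie behind each value.

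The mitochondrial genes MIX17 and TUF1 and the cell wall gene SVS1 made up the rest. MIX17, whose product resides in the mitochondrial intermembrane space, was at 609, 426 and 335 FPKM for MSB3Δ, 321, 696 and 351 for NIT3Δ, 238, 297 and 193 for HSP26Δ and 231, 297 and 252 for TYS1 DAmP, with WT at 296 and 291. The difference of 0.81 ± 0.22 was 0.52, under the fold, without the 2 libraries that were highest. TUF1, the mitochondrial translation elongation factor, was at 302, 238 and 209.5 FPKM for MSB3Δ, 247, 285 and 273 for NIT3Δ, 179, 177 and 138 for HSP26Δ and 181, 159 and 154 for TYS1 DAmP, with WT at 179 and 229 (0.65 ± 0.14, and 0.55 without the 2 libraries). SVS1, a gene induced at the start of the cell cycle, was at 382, 255 and 266 FPKM for MSB3Δ, 274, 266 and 253 for NIT3Δ, 182, 182 and 189.6 for HSP26Δ and 103, 217 and 160.3 for TYS1 DAmP. Its 12 libraries left a gap between 217 and 253 FPKM, where no library lay, and the difference was 0.73 ± 0.18 with WT at 207 and 203. After median-ratio scaling SVS1 (0.58) and TUF1 (0.50) were no longer past the fold.

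WT lay closer to one pair for each gene. On the log2 scale the WT mean was nearer to HSP26Δ/TYS1 DAmP for the 6 higher genes. For 5 of the 6 lower genes it was nearer to MSB3Δ/NIT3Δ, and for YBR238C nearer to HSP26Δ/TYS1 DAmP. For SNZ1, YER160C and NHP6B both WT libraries were below every library of HSP26Δ/TYS1 DAmP. These positions rest on 2 WT libraries.

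Without a threshold on the fold, 22 genes were higher in MSB3Δ/NIT3Δ with no overlap (0.384%) and 11 were lower (0.192%). The 16 further higher genes, named after their values were seen, again included mitochondrial ones. These were MRPL4, a protein of the mitochondrial ribosome (82.8 to 109.7 against 57.0 to 80.0 FPKM, 0.42 ± 0.12), the inner membrane insertase gene OXA1 (142 to 194 against 104 to 137 FPKM, 0.33 ± 0.13), the import genes TIM13 (281 to 362 against 182 to 266 FPKM) and TOM71 (58.1 to 103 against 46.0 to 56.9 FPKM), DLD2, MCY1 and ADH3. The difference of ADH3, 0.10, became −0.06 after median-ratio scaling. MSB4, the paralog of MSB3 with 67.7% identity over aligned coding bases, was at 28.8 to 51.6 against 25.0 to 27.9 FPKM (0.37 ± 0.14). The difference was 0.19 without MSB3Δ replicate 1 and NIT3Δ replicate 2. MSB4 was higher than in the opposite pair in the 3 NIT3Δ libraries as well as in MSB3Δ. WT was at 25.9 and 31.2 FPKM, the latter above some MSB3Δ and NIT3Δ libraries. The single-strand DNA binding gene RFA2 (0.53 ± 0.19) was the closest to the fold among the higher genes, and the regulator gene SUT2 (−0.51 ± 0.18) among the lower.

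The sequence after the stop codon was searched for 1 element. Puf3 is an RNA-binding protein of yeast that binds elements of the form TGTANATA in the 3′ ends of many transcripts for mitochondrial proteins. On the coding strand within 250 bases after the stop codon, TGTANATA was present in 11 of the 22 higher genes (50%) and 1 of the 11 lower (9.09%), against 15.7% of the 5711 genes kept. It was in 68 of 70 genes of the mitochondrial ribosome (97.1%) and 35 of 49 genes of mitochondrial import and assembly (71.4%). The 895 genes with the element had a median difference of 0.20, and the 4816 without it 0.13. Outside the mitochondrial lists the medians were 0.18 and 0.13, and without the 2 libraries 0.05 and 0.00. The lack of a fold threshold behind the 22 and 11 genes was chosen after seeing the data. Mitochondrial genes had already been seen among the 22, so their share with the element is not read as a separate result. The match says only that these letters are present. The sites are shown for mitochondrial genes that held one and for DUG1, with TGTANATA in capitals.
MIX17 (chrXIII:272853-272882, forward strand): tttattttgtaTGTAAATAacttttataaa
TUF1 (chrXV:685421-685450, forward strand): aattttatacgTGTAAATAaagtgccataa
MRPL4 (chrXII:1015467-1015496, forward strand): accctctctccTGTAAATAtatatatatat
OXA1 (chrV:476238-476267, forward strand): ctatatctctcTGTAAATAtaaaaatataa
TIM13 (chrVII:858638-858667, forward strand): gtactcgtactTGTATATAagattcaaagg
DLD2 (chrIV:141138-141167, forward strand): ttatctacataTGTATATAtttatcaatat
DUG1 (chrVI:239954-239983, reverse strand): atttatatatgTGTATATAtgtgtaaattc
In the sites shown, the variable base was A in MIX17, TUF1, MRPL4 and OXA1, and T in TIM13, DLD2 and DUG1. TIM13 held 2 matches, of which the first is shown.

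Lists of genes were then read across the 12 libraries, and the members named from here on were chosen after their values were seen. For each library a list's level was the median over its genes of log2(FPKM + 1) relative to the mean of the 12 mutant libraries. The largest difference among the mitochondrial lists was in the respiratory chain, the complexes that pass electrons to oxygen and the ATP synthase. All 39 genes differed by more than 0, as did 72.2% of all genes, and 27 were past the fold and higher, against 5.99% of all genes. The median was 0.70 against 0.14 over all genes, yet none was separated. CYC1, cytochrome c, differed by 2.12 ± 0.50, and COR1 and CYT1 of the cytochrome bc1 complex by 1.00 ± 0.30 and 0.99 ± 0.31. The level of the list was 0.83, 0.17 and −0.36 for MSB3Δ, −0.11, 1.32 and 0.29 for NIT3Δ, −0.40, −0.42 and −0.20 in HSP26Δ and −0.41, −0.22 and −0.42 for TYS1 DAmP. MSB3Δ replicate 3 thus lay inside the range of the opposite pair, and the other 5 libraries of its pair lay above that range. The highest levels were in the 2 libraries with the lowest ribosomal protein share. Without MSB3Δ replicate 1 and NIT3Δ replicate 2 the median was 0.30, against 0.01 over all genes, and 2 genes were past the fold, against 1.17% of all genes.

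The mitochondrial ribosome, which translates the few proteins encoded in the organelle, differed less. All 70 genes differed by more than 0, against 72.2% of all genes, and 10 were past the fold and higher, against 5.99%. Without the 2 libraries the largest difference in the list was 0.47, that of IMG2, which is under the fold. The median was 0.46, and 0.29 without the 2 libraries, against 0.14 and 0.01 over all genes, and MRPL4 was the member with no overlap. MRPS16 (0.76 ± 0.28), MRPL6 (0.74 ± 0.23) and MRPS5 (0.71 ± 0.21) differed most. TYS1 DAmP replicate 1, at 0.29, was above 4 of the 6 libraries of MSB3Δ/NIT3Δ, the other libraries of its pair between −0.47 and −0.07. Mitochondrial import and assembly, a list written after its members with no overlap were seen, had 46 of 49 genes above 0, where all genes had 72.2%, and a median of 0.27 (0.17 without the 2 libraries). Its 4 genes with no overlap, where all genes had 0.384%, are no support for the list. The TCA cycle had 14 of 17 genes above 0, a share near that of all genes, and a median of 0.30 (0.13). HAP4, the activating subunit of the Hap complex, was at 77.7 to 280.5 FPKM against 68.0 to 124 FPKM (0.67 ± 0.27), with overlap. None of the 54 regulators listed was separated.

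**Figure D3:**
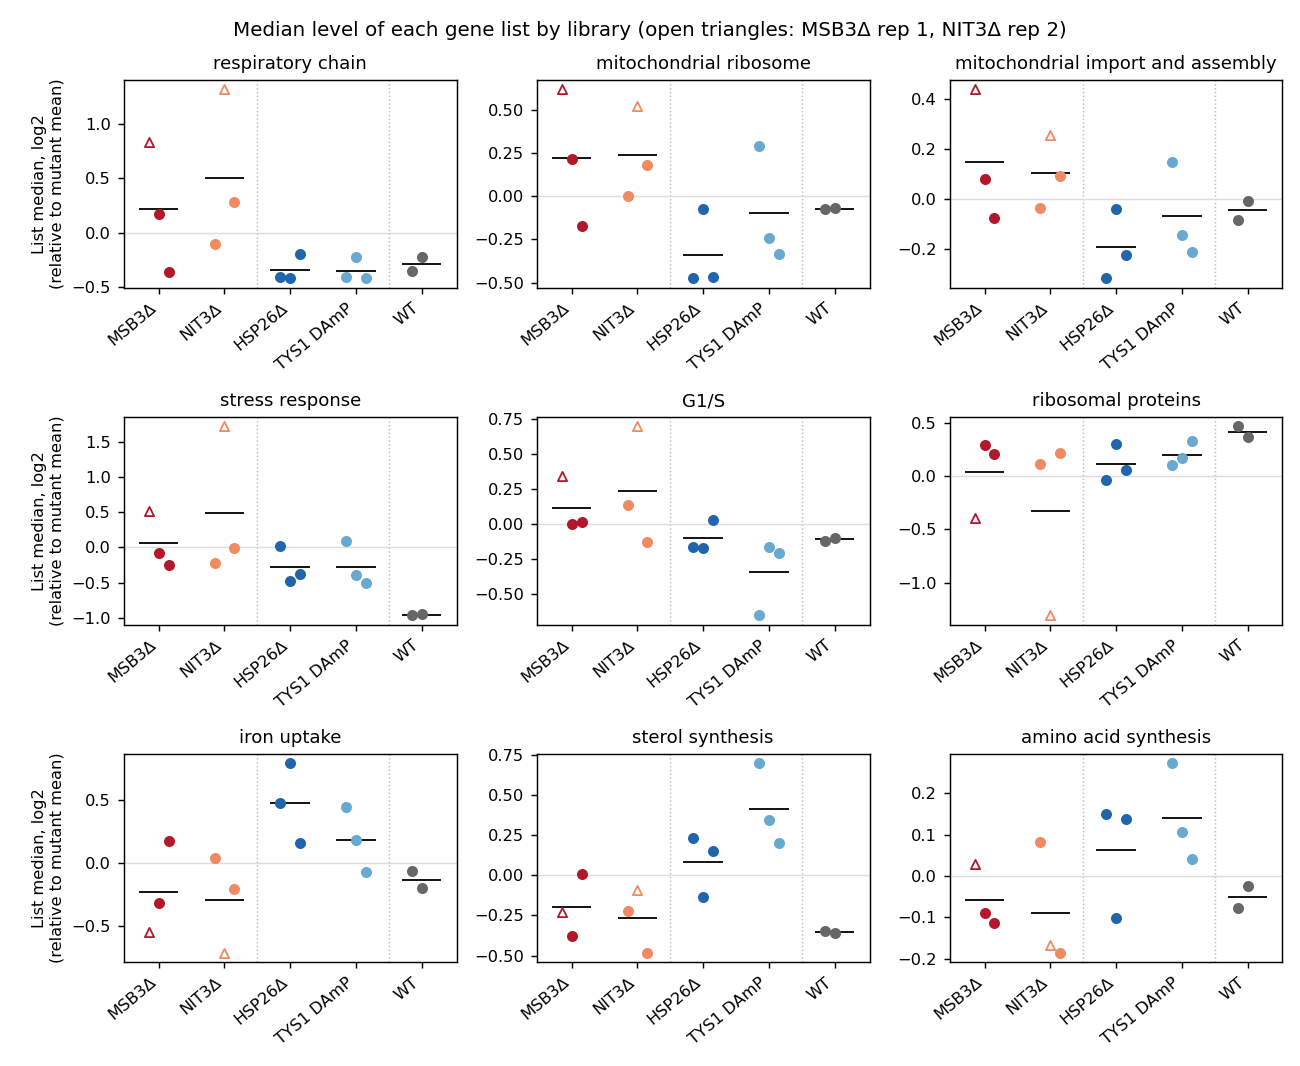
Median level of 9 gene lists in each library, as log2(FPKM + 1) relative to the mean of the 12 mutant libraries, with bars at the strain means and open triangles for MSB3Δ replicate 1 and NIT3Δ replicate 2. The respiratory chain was highest in these 2 libraries (0.83 and 1.32), and no list shown separates all 6 libraries of one pair from all 6 of the other.

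Stress genes were higher in MSB3Δ/NIT3Δ on average, mainly through 2 libraries. Of 43 stress response genes, 40 were above 0, against 72.2% of all genes, and 17 were past the fold, against 5.99%. The median was 0.55 against 0.14 over all genes, and 0.11 against 0.01 without MSB3Δ replicate 1 and NIT3Δ replicate 2, where 8 were past the fold, against 1.17% of all genes. HSP12, a membrane-stabilizing stress protein, was at 1616, 624 and 167 FPKM for MSB3Δ, 266, 5459 and 600.4 for NIT3Δ, 133, 148 and 77.8 for HSP26Δ and 219, 359 and 195 for TYS1 DAmP (2.1 ± 0.68, and 1.08 without the 2 libraries). HSP26, whose deletion defines 1 of the strains and which therefore enters no list, was at 1329, 589 and 134 FPKM for MSB3Δ, 226, 3627 and 450.1 for NIT3Δ and 184, 183 and 98.4 for TYS1 DAmP. The same 2 libraries carried the lowest level of the 135 cytosolic ribosomal protein genes, −0.39 and −1.30, against −0.03 to 0.33 in the other 10. That list had a median of −0.29, and 0.05 without them, and its part in the other differences was not tested. Among the mating-type specific genes AGA2, the a-agglutinin binding subunit, was at 746, 288 and 60.95 FPKM for MSB3Δ, 100.2, 1116 and 177 for NIT3Δ, 40.8, 62.5 and 45.8 for HSP26Δ and 72.9, 164 and 120.5 for TYS1 DAmP. It was highest in the same 2 libraries, and the list's median of 0.69 over 9 genes was 0.11 without the 2 libraries. Of 37 genes induced at G1/S, 36 were above 0, against 72.2% of all genes, with a median of 0.40 against 0.14 (0.19 against 0.01 without the 2 libraries), and SVS1 was the separated one.

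**Figure D4:**
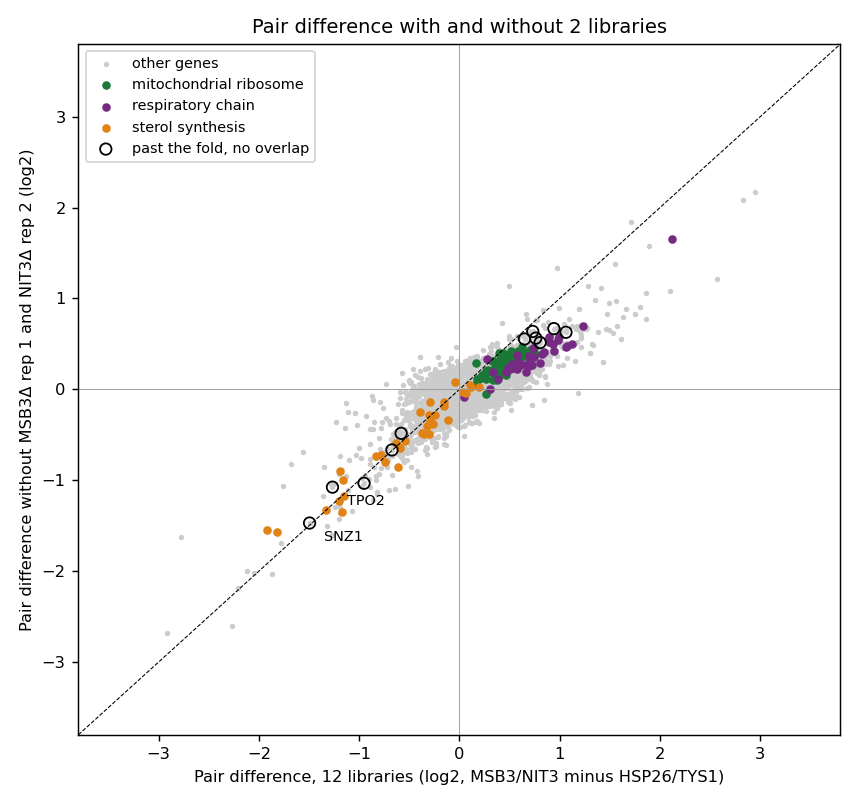
Difference between the pairs in log2 for each gene except the 4 targeted ones, with all 12 libraries on the horizontal axis and without MSB3Δ replicate 1 and NIT3Δ replicate 2 on the vertical axis, and a dashed line at equality; circles mark 11 of the 12 separated genes. Most respiratory chain genes (median 0.70 and 0.30) lie below the line, while sterol genes (−0.37 and −0.48) and the lower separated genes lie near it.

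The sterol and iron lists had medians below 0. Sterol synthesis had 15 of 34 genes past the fold and lower, against 2.79% of all genes, and none higher, with a median of −0.37, and −0.48 without the 2 libraries, against 0.14 and 0.01 over all genes. ERG3, the sterol C-5 desaturase, was at 236, 344 and 804 FPKM for MSB3Δ, 422, 164 and 281 for NIT3Δ, 991, 611 and 768 for HSP26Δ and 2397, 1828 and 1819 for TYS1 DAmP, with WT at 451 and 379. ERG25, the C-4 methyl sterol oxidase, was at 261 to 599 FPKM in MSB3Δ/NIT3Δ, 474 to 779 for HSP26Δ and 1117 to 1472 for TYS1 DAmP. Both were highest in TYS1 DAmP, and MSB3Δ replicate 3 lay above HSP26Δ replicate 2 in both. The anaerobic cell wall gene TIR1 was at 107 to 804 FPKM in MSB3Δ/NIT3Δ, 234 to 874 for HSP26Δ and 2003 to 4049.8 for TYS1 DAmP, and here too the strains of one pair differed from each other.

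All 29 genes of the iron uptake list were lower in MSB3Δ/NIT3Δ, where 72.2% of all genes were above 0. Past the fold were 13, against 2.79% of all genes. The list's median was −0.49, and −0.36 without the 2 libraries, against 0.14 and 0.01 over all genes. Without those libraries FRE2 (0.12) and TIS11 (0.22) were above 0. FIT2, a cell wall mannoprotein that retains siderophore iron, was at 3966, 7378 and 20526 FPKM for MSB3Δ, 11406, 1604 and 7499 for NIT3Δ, 25512, 21151 and 24598 for HSP26Δ and 26694, 17993 and 19263 for TYS1 DAmP (−1.76 ± 0.48). Only MSB3Δ replicate 3 reached the range of the opposite pair, and WT was at 11423 and 5628. FIT3 (−1.28 ± 0.30) and the siderophore transporter genes ARN2 (−1.35 ± 0.36) and SIT1 (−1.03 ± 0.29) went the same way, each with overlap. Among 66 genes of amino acid synthesis 12 were past the fold and lower, against 2.79% of all genes, and none higher. The median was −0.16 with and without the 2 libraries, against 0.14 and 0.01 over all genes. The arginine genes ARG1 (−1.25 ± 0.44), ARG3 (−1.16 ± 0.38) and ARG5,6 (−0.72 ± 0.31) were among the 12, each with overlap. ARG8 (−0.38 ± 0.14) and ARG4 (−0.21 ± 0.26) were not past the fold. Without the 2 libraries ARO4 (−0.21), HIS1 (−0.26) and ILV5 (−0.32) were among those no longer past it, while ARG4 (−0.53) was. ARG1 was at 80.2 to 259.9 FPKM in MSB3Δ/NIT3Δ, and TYS1 DAmP replicates 2 and 3, at 174 and 151 FPKM, lay inside that range. TGACTC was in the windows of 33 of the 65 genes of this list that had one (50.8%).

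Leaving out MSB3Δ replicate 3, which lay inside the range of the opposite pair for the respiratory chain and iron lists, gave 87 higher and 31 lower separated genes, the largest counts among the 12 libraries left out in turn. Without MSB3Δ replicate 1 and NIT3Δ replicate 2, the lower genes that joined those still separated, SNZ1, TPO2, YER160C and YBR238C among them, named after their values were seen, were SNO1, TDA6, a gene of unknown function (−1.36), PCL5, a cyclin that controls Gcn4 turnover (−0.58), the methyltransferase gene TMT1 (−0.85) and 11 others, 5 of them retrotransposon frames whose copies cannot be told apart. In this set PCL5 was at 591 to 808 FPKM in the 4 remaining libraries of MSB3Δ/NIT3Δ and 893 to 1167 FPKM in HSP26Δ/TYS1 DAmP, but at 1162 and 906 FPKM in the 2 libraries left out, and at 534 and 595 FPKM in WT. GCN4 itself overlapped between the pairs, at 901 to 1183 and 997 to 1378 FPKM.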

How the data were processed

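Transcript levels of 12 mutant and 2 WT libraries, sequenced on a BGISEQ-500, were read from 1 table of FPKM values that the authors deposited for each gene and library, with no further scaling between libraries stated. The submitters' processing notes name HISAT2 2.1.0, Bowtie2, RSEM 1.3.1 and build R64, without their roles. They also name DESeq2 1.4.5. Read counts were not used here, so depth was estimated from steps between low FPKM values, and FPKM depends on the share taken by abundant transcripts. Of 5886 gene names, 5877 were matched to the R64 annotation.

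Values were taken as log2(FPKM + 1) over the genes that averaged 1 FPKM or more in the 14 libraries. limma 3.58.1 in R 4.3.3 fitted 4 strain means to the 12 mutant libraries, with a trended and robust variance, and gave the difference between the pairs and its SE. The members, the 34 gene lists and the tests were chosen with earlier results of these data known, and 6 further lists after the values were seen. Named were the targeted genes, the 10 separated genes with the largest difference in each direction, up to 4 separated members of each list, separated regulators and strain markers, and other names were chosen after their values were seen. Motifs were searched in the R64 genome with Python 3.11.15. The fit was checked on simulated data. Alternatives covered the pseudocount, filter, scaling, strain term, replicate block, library weights, fold and libraries left out. LEU2, URA3, MFA1 and MFA2 were not analysed here. Of the 12 separated genes, 1 is not reported here by name.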

Additional observations from a re-analysis of the deposited data

Results flagged for a closer look

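In 60 groups of 6 libraries, the levels of the leading lists and the separated genes in each pair, the highest or lowest library was set against the others. By Dixon's criterion 6 stood apart. Its rate of about 1 in 20 by chance holds for a single sample of independent values. These groups pool 2 strains and include genes chosen for separation in the same libraries, so the count is not read against that rate. NIT3Δ replicate 2 had a ribosome biogenesis level of −0.62 on the log2 scale, against −0.01 to 0.25 in the other 5 libraries of MSB3Δ/NIT3Δ. The same library had a trehalose and glycogen level of 1.16, against −0.17 to 0.06. Its NHP6B was at 6.98 in log2(FPKM + 1), against 7.48 to 7.70. MSB3Δ replicate 1 had SVS1 at 8.58, against 7.99 to 8.10. In HSP26Δ/TYS1 DAmP, TYS1 DAmP replicate 1 had a G1/S level of −0.65, against −0.21 to 0.02 in the other 5 libraries. This library also had SNZ1 at 8.11, against 5.42 to 6.42. These are the 3 libraries that lay farthest from the other mutants over all genes.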

How the results depend on the processing

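The count of separated genes higher in MSB3Δ/NIT3Δ, 6, was 1 with a log2 difference of at least 1, 22 without a fold threshold, 334 between the 4 strain means and 5 to 87 with 1 library left out. The count of lower genes, also 6, was 2, 11 and 145 under those first 3 settings, 21 with median-ratio scaling, 20 without MSB3Δ replicate 1 and NIT3Δ replicate 2, 18 without TYS1 DAmP replicate 1 as well, and 6 to 31 with 1 library left out. The highest counts came without MSB3Δ replicate 3. The counts were also raised to 23 and 21 higher genes without TYS1 DAmP replicate 1 or 2 and to 21 lower genes without HSP26Δ replicate 2. Fewer libraries, or strain means, make a lack of overlap easier by construction. Of the 12 separated genes, 11 or 12 stayed separated with 1 library left out, 8 without the 2 libraries, 9 without the 3 and 10 with scaling.

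The 7 genes with an adjusted p under 0.05 in limma became 4 without the 2 libraries, 0 in a 6 against 6 fit with no strain term (834 at an unadjusted p under 0.05), 752 with array weights, an estimate that stopped before convergence, 533 between strain means and 4 to 16 with 1 library left out. With the replicate number as a block, 4 were called. Deviations of libraries with the same number correlated from −0.77 to 0.44, over 0.1 in 9 of 18 pairs. They were taken from strain means that MSB3Δ replicate 1 and NIT3Δ replicate 2 shift. These values therefore cannot show whether the number paired the libraries.

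The median of amino acid synthesis was −0.31 with scaling, and that of polyamines −0.21 both with scaling and with array weights, where scaling also moved the median of all genes to −0.01. The other 393 list medians recomputed moved by less than 1 SD between libraries, a spread that includes MSB3Δ replicate 1 and NIT3Δ replicate 2. A move under this limit is not always small, as the respiratory chain and stress medians without these libraries show. The 3-library omission and the lack of a fold threshold were chosen after seeing the data. FPKM without counts leave the counting error of low genes such as YOR186W unknown.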
